A study of Mus musculus with 2 samples.

Results

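The cadherins and non-clustered protocadherins are cell-surface adhesion genes whose symbols are Cdh or Pcdh followed by a number. By that rule 34 of the 32285 genes in the feature lists were members, 23 cadherins and 11 protocadherins. The rule reads symbols and no measured value, but it was set with earlier results of these data known. They were followed in 2 single-cell RNA sequencing libraries of mouse cerebellum, microdissected from lobules III-IV at postnatal day 1 (P1). Both groups carried the strain label B6.129S2-Cxcr4tm1.1Bala. The control library came from Cxcr4+/+ littermates and the mutant library from heterozygous Cxcr4+/1013 mice, whose 1013 allele encodes a chemokine receptor with a truncated tail. How many animals a library pools is not given by the labels used here, and with 1 library per genotype there was no replicate and no test. Every difference between genotypes below is therefore one between 2 libraries.

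Classical cadherins bind like molecules on the neighbouring cell through their extracellular repeats and hold the actin cytoskeleton through catenins at their tail. Type I members such as Cdh2 and Cdh4 give strong, widespread adhesion, whereas the many type II members, among them Cdh6 to Cdh12, Cdh18, Cdh20 and Cdh22, are known for combinatorial patterns that sort neurons into layers and stripes. The non-clustered protocadherins adhere more weakly, and several act through the WAVE actin regulator. In the developing cerebellum both families are known for marking Purkinje cell stripes and for granule cell migration.

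The control library held 120003656 unique molecular identifiers (UMIs, single captured transcripts) in 9586 barcodes and the mutant library 130429500 in 9551. A barcode was kept with 500 or more genes and no more than 10% mitochondrial UMIs, which left 8353 control and 8194 mutant barcodes, and 18 barcodes occurred in both. Cells were sorted by 17 fixed marker lists, none of which holds a member, into 6039 control and 6504 mutant gated cells. Use was made of the 14 classes that had 20 or more cells in both libraries, and a class name says which marker list its cells carried. Of 32 markers held out of the gate, 24 were highest in their own class in both libraries. The own marker list had the highest summed level in 13 of 14 classes. The exception was the GABAergic or glial progenitor class, where the Purkinje list stood higher although its defining gene Skor2 was at 0 UMIs in both libraries. Levels are UMIs summed over a class and scaled to a total of 1000000 (CPM), with exact Poisson 95% intervals that cover counting error only. The 3' UMIs do not scale with transcript length, and levels are compared here for 1 gene across classes. Cxcr4, the gene carrying the allele, was at 27.1 CPM in the control and 24.1 CPM in the mutant library, and 3' counts do not show the allele.

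Member transcripts were most abundant in Purkinje cells, where all 34 genes together reached 7126 CPM in the control and 7141 CPM in the mutant library. GABAergic interneurons (5448 and 5449 CPM) and the oligodendrocyte lineage (5464 and 6485 CPM) came next. The interneuron level rested on Pcdh9: without that gene interneurons summed to 2785 and 2796 CPM, below the oligodendrocyte lineage (3610 and 4064 CPM) and, in the mutant library, below glutamatergic neurons (3126 CPM). The lowest summed levels lay in meningeal or vascular fibroblasts (855 and 928 CPM) and in microglia or macrophages (658 and 378 CPM). The cadherin and protocadherin shares differed by class. In granule cell progenitors the 23 cadherins summed to 1057 and 1159 CPM and the 11 protocadherins to 432 and 550 CPM, whereas in interneurons the cadherins summed to 1260 and 1271 CPM and the protocadherins to 4188 and 4177 CPM. Neuronal classes together, the GABAergic or glial progenitors among them, held 4131 and 4164 CPM against 2457 and 3137 CPM in the other classes. The ratio was 1.68 in the control library and 1.33 in the mutant one. These sums pool classes by their UMIs, and the class mix differed: the fibroblasts, low in members, held 2873633 control and 430904 mutant UMIs. The part of class mix in the 2 ratios was not tested.

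Most members had the same class of highest level in both libraries. Of the 27 members with at least 50 UMIs over the gated cells of each library, 23 did, and for 17 the highest class stood above the second beyond the counting interval in both libraries. Neither these counts nor the numbers of members per highest class were made over all genes. They therefore do not set the members apart from other genes. Values are given below for the 28 members that reached 10 CPM in a class in both libraries.

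**Figure D1:**
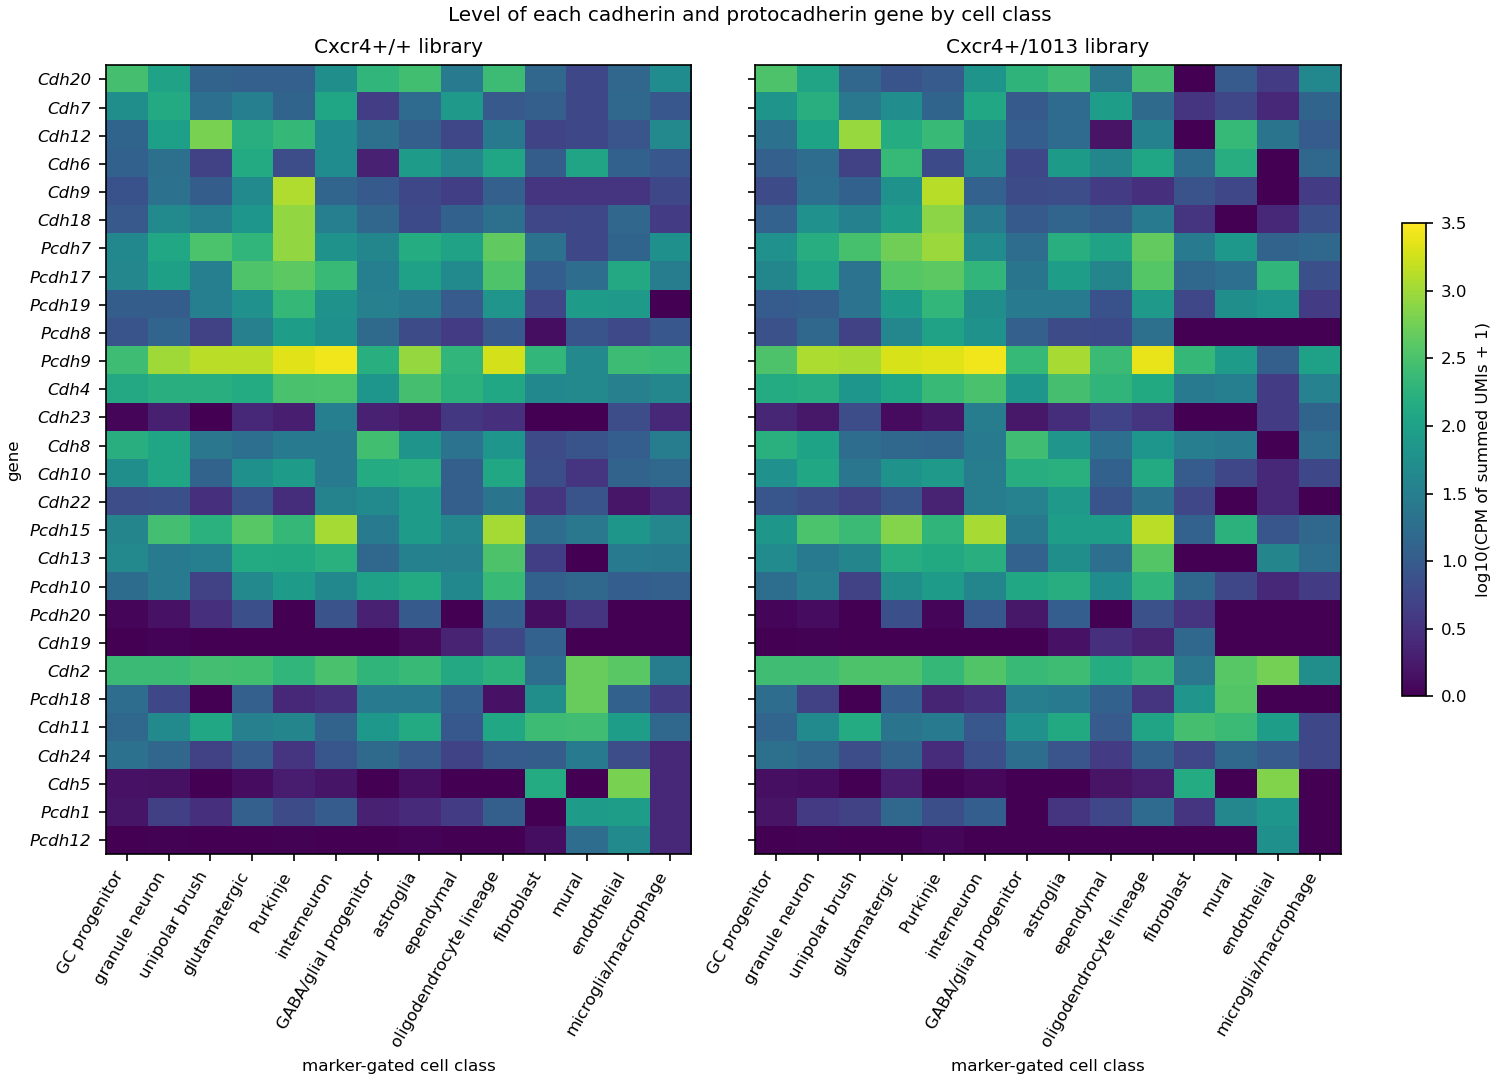
Level of the 28 members with full values (rows) in the 14 marker-gated classes (columns), as log10(CPM of summed UMIs + 1), in the Cxcr4+/+ library on the left and the Cxcr4+/1013 library on the right. The rows are ordered by the class of highest level in the control library, and the bright Purkinje block of Cdh9, Cdh18 and Pcdh7 is seen in both panels.

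Purkinje cells, the output neurons of the cerebellar cortex, were the highest class for 6 members. Cdh9, a type II cadherin, was at 1212 CPM (1196 to 1229) in the control and 1344 CPM (1327 to 1362) in the mutant Purkinje cells. Its second class was the glutamatergic nuclear or midbrain neurons at 45.4 and 60.4 CPM, so the Purkinje level was 26.7-fold higher (22.8 to 31.4) in the control library and 22.3-fold higher (19.5 to 25.6) in the mutant one. Cdh9 had the steepest step from first to second class among the members with full values and at least 50 UMIs in each library. At 2000 UMIs per cell it was detected in 323 of 486 control and 340 of 465 mutant Purkinje cells, 66.5% (62.1 to 70.7, exact Clopper-Pearson interval) and 73.1% (68.8 to 77.1). In astroglia it was detected in 9 of 841 and 5 of 525 cells, 1.07% and 0.952%. The part of free RNA in these shares was not tested. Without thinning the Purkinje shares were 88.6% and 93.8%.

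Cdh18, another type II cadherin, was at 845 CPM (831 to 859) and 788 CPM (775 to 802) in Purkinje cells, 12.4-fold and 9.37-fold above the glutamatergic neurons. Pcdh7 was at 843 and 934 CPM, 1.92-fold above the oligodendrocyte lineage in the control and 1.72-fold above the glutamatergic neurons in the mutant library. For Pcdh17 the Purkinje level of 409 and 408 CPM was close to that of the oligodendrocyte lineage, 341 and 377 CPM, with ratios of 1.20 (1.11 to 1.30) and 1.08 (1.01 to 1.16). Pcdh19, an X-linked protocadherin known for a sex-linked epilepsy, was at 210 and 209 CPM, and its second class stood 2.44-fold and 2.47-fold lower. Pcdh8 was at 91.6 and 103 CPM, 1.64-fold and 1.66-fold above interneurons.

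Cdh9 and Cdh18 belong to a run of 5 type II cadherin genes on chromosome 15, in the order Cdh6, Cdh9, Cdh10, Cdh12 and Cdh18, with gaps of 3.56, 1.96, 1.44 and 0.959 Mb between neighbours. The 5 genes did not share a class of highest level. Cdh6 was highest in glutamatergic neurons, Cdh9 and Cdh18 in Purkinje cells, Cdh10 in astroglia and Cdh12 in unipolar brush cells. For Cdh6 in the control library, and for Cdh10 in both, the second class followed within counting error. The promoters of the Purkinje pair are shown because these genes also varied together from cell to cell, as described further on. Each sequence runs from 250 bases before to 50 bases after the RefSeq start site (GRCm38.p6, plus strand), chr15:16728665-16728964 for Cdh9 and chr15:23036213-23036512 for Cdh18, with matches to the E-box letters CANNTG, the same on either strand, in capitals. The annotation of the gene models places Cdh9 (ENSMUSG00000025370) at chr15:16728756-16857094 and Cdh18 (ENSMUSG00000040420) at chr15:22549022-23474418, so the Cdh18 window lies inside that longer model, downstream of its first start.
Cdh9: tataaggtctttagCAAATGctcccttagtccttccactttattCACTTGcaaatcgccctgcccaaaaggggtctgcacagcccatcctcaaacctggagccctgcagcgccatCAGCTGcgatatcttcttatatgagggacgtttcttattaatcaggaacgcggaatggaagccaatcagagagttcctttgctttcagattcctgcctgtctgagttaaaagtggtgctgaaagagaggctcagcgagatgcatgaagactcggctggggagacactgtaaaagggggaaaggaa
Cdh18: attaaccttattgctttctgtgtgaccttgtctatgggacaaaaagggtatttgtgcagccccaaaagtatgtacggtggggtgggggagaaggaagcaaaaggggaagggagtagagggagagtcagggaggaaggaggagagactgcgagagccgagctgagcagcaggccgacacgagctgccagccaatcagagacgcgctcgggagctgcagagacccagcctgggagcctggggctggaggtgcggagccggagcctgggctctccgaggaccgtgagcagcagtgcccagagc
The Cdh9 window held 3 E-box matches and 8 CpG dinucleotides at 48.7% GC. The Cdh18 window held no E-box match, 12 CpG and 1 match to AGGTCA, the letters bound by the ROR nuclear receptors, at 60.3% GC. Over all 32851 RefSeq promoters of this length, searched on both strands, CANNTG was found in 72.3%, AGGTCA in 16.3% and TATAAA in 13.6%, with a median of 7 CpG and 52.7% GC. The windows differed in their E-box, AGGTCA and CpG counts and in GC, and neither held TATAAA. A match is a description of the letters and not a bound site. Of the 34 members, 22 were in the promoter table, with 25 windows.

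The interneurons, marked by Pax2 and by GABA synthesis genes, were the highest class for Pcdh9, Cdh4 and Cdh23. Pcdh9 was at 2663 CPM (2638 to 2688) in the control and 2652 CPM (2631 to 2673) in the mutant interneurons, and between 885 and 2168 CPM in 6 further classes of the control library: granule neurons, unipolar brush cells, glutamatergic neurons, Purkinje cells, astroglia and the oligodendrocyte lineage. Cdh23, known for the tip links of hair cells, was low but restricted, at 31.6 and 28.6 CPM against at most 5.61 CPM elsewhere in the control and 12.5 CPM in the mutant library. Pcdh15, the tip-link partner of Cdh23, was high in the same cells at 1051 and 1098 CPM. It was slightly higher in the oligodendrocyte lineage at 1082 and 1360 CPM, a step within counting error in the control library (1.03, 0.984 to 1.08) and beyond it in the mutant library (1.24, 1.19 to 1.29). The oligodendrocyte lineage was also the highest class for Cdh13, a cadherin that lacks the cytoplasmic tail and is held by a lipid anchor, at 335 and 364 CPM, and for Pcdh10 at 235 and 201 CPM.

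Cdh20 and Cdh7, neighbouring type II genes on chromosome 1 separated by 4.99 Mb, marked the granule cell lineage in reverse order. Cdh20 was highest in Atoh1-positive progenitors at 294 CPM (285 to 304) and 329 CPM (320 to 338) and stood at 101 and 111 CPM in granule neurons. Its progenitor level was only 1.09-fold above astroglia in the control and 1.13-fold above the oligodendrocyte lineage in the mutant library. Cdh7 was highest in granule neurons at 137 and 160 CPM, 1.19-fold and 1.31-fold above interneurons, and stood at 53.9 and 64.5 CPM in progenitors. Cdh8 was highest in the GABAergic or glial progenitors at 276 and 268 CPM, followed by granule cell progenitors at 161 and 164 CPM. In Purkinje cells it was at 26.5 and 12.7 CPM.

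The remaining type II members had other peaks. Cdh12 was highest in unipolar brush cells, excitatory interneurons of the granular layer, at 628 CPM (561 to 701) and 920 CPM (840 to 1006), 2.91-fold and 4.03-fold above Purkinje cells. Cdh6 was highest in glutamatergic neurons at 135 and 223 CPM. In the control library the oligodendrocyte lineage followed within counting error at 116 CPM (ratio 1.17, 0.995 to 1.37). Cdh10 (163 and 167 CPM) and Cdh22 (83.4 and 75.2 CPM) were highest in astroglia or Bergmann glia. For Cdh10 the GABAergic or glial progenitors followed within counting error. Cdh11 was highest in mural cells in the control (270 CPM) and in fibroblasts in the mutant library (297 CPM), and these classes overlapped within counting error in both.

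The type I member Cdh2, N-cadherin, was the flattest of the abundant genes. It lay between 127 and 493 CPM in the control classes other than fibroblasts (17.4 CPM) and microglia or macrophages (28.2 CPM). Its highest class was mural in the control (493 CPM) and endothelial in the mutant library (588 CPM). The type I member Cdh4, R-cadherin, had 3 near-equal classes in the control library, interneurons (323 CPM), Purkinje cells (315 CPM) and astroglia (289 CPM), with a first-to-second ratio of 1.03 (0.988 to 1.07). In the mutant library the same classes were at 309, 237 and 293 CPM.

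Cdh5 and Pcdh12 were low outside vascular and meningeal classes, whereas Pcdh1 and Pcdh18 peaked there but had most of their UMIs elsewhere. Cdh5, VE-cadherin of endothelial junctions, was at 622 and 682 CPM in endothelial cells and at 142 and 139 CPM in fibroblasts, and at or below 1.57 CPM in the other classes. Pcdh12 was at 45.5 and 55.8 CPM in endothelial cells. Pcdh1 was at 89.8 and 67.9 CPM there and at 81.3 and 40.7 CPM in mural cells. Pcdh18 was at 490 and 371 CPM in mural cells, 9.39-fold and 5.70-fold above fibroblasts. The class with most gated Pcdh18 UMIs was astroglia in the control (29.0%) and granule cell progenitors in the mutant library (31.8%), and for Pcdh1 it was interneurons (25.1% and 38.2%). Cdh19, known from neural crest derivatives, was at 11.5 and 13.9 CPM in fibroblasts. Cdh24 (at most 26.3 CPM in any class) and Pcdh20 (at most 10.9 CPM) were low throughout.

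The other 6 members, Cdh1, Cdh3, Cdh15, Cdh16, Cdh17 and Cdh26, did not reach 10 CPM in a class in both libraries. Their whole-library totals ran from 1 to 82 UMIs in the control and from 4 to 105 in the mutant library. Cdh1 and Cdh3 are the epithelial E- and P-cadherin. The highest of the 6 was Cdh26 in ependymal cells at 9.81 and 12.8 CPM.

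Along the granule cell lineage more members were higher in neurons than in dividing progenitors, and few were lower. Progenitors were divided by whether at least 2 of the 3 mitotic genes Mki67, Top2a and Cenpf were detected, and granule neurons by whether Cntn2 or Nhlh1, transient genes of new granule neurons, had a UMI. That gave 518 control and 657 mutant dividing progenitors, 177 and 204 low-mitotic progenitors, 1155 and 1599 early neurons, and 585 and 666 later neurons. Median depth went from 18651.5 and 20325 UMIs in dividing progenitors to 12214 and 11678 in later neurons, and CPM is relative to that depth. Of 22 members with enough UMIs, 12 were at least 1.5-fold higher in later neurons than in dividing progenitors in both libraries, where 17.7% of all genes were. In the opposite direction 3 members, Cdh20, Pcdh18 and Cdh13, were at least 1.5-fold lower, where 12.6% of all genes were, a share near that of the members, and 7 were neither.

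State by state, the first step, from dividing to low-mitotic progenitors, had 4 of 22 members higher (background 5.25%), Pcdh15, Pcdh17, Pcdh9 and Cdh9, and none lower (background 4.79%). From low-mitotic progenitors to early neurons 8 of 23 members were higher (background 13.6%), among them Cdh7, Cdh11, Cdh12 and Cdh18, and 2 lower, Cdh20 and Pcdh18 (background 10.2%). Between early and later neurons Pcdh18 was the 1 member higher (background 1.3%) and Pcdh8 the 1 lower (background 1.35%). Early neurons against dividing progenitors had 13 of 23 members higher (background 21.0%) and 4 lower (background 16.9%).

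Pcdh15 was at 33.3 and 56.6 CPM in dividing progenitors, 57.3 and 139 CPM in low-mitotic progenitors, 283 and 300 CPM in early neurons and 297 and 398 CPM in later neurons. From first to last state that was 8.93-fold (7.95 to 10.0) in the control library and 7.02-fold (6.50 to 7.60) in the mutant one. Cdh12 was 6.90-fold and 6.59-fold higher in later neurons than in dividing progenitors, and Cdh18 6.44-fold and 6.07-fold. Most of the Cdh12 step lay between low-mitotic progenitors (12.5 and 22.4 CPM) and early neurons (98.1 and 99.5 CPM). Pcdh9 was earlier: it was at 219 and 266 CPM in dividing progenitors, already 2.03-fold and 2.37-fold higher in low-mitotic progenitors, and at 1116 and 1403 CPM in later neurons. Cdh7 was 2.66-fold and 2.55-fold higher in later neurons, and Pcdh7 3.07-fold and 3.35-fold. Cdh11 (3.35-fold and 4.59-fold), Pcdh17 (3.04-fold and 4.39-fold) and Cdh9 (3.76-fold and 7.31-fold, from 6.07 and 4.04 CPM) had the same direction, as did Cdh10, Pcdh10 and Cdh6 at 1.67-fold to 2.06-fold.

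Cdh20 had the opposite course. It was at 295 and 342 CPM in dividing progenitors, 292 and 270 CPM in low-mitotic progenitors and 92.5 and 112 CPM in early neurons, so that its step coincided with the loss of Atoh1 that separates the gates. Later neurons were at 0.410 and 0.313 of the level in dividing progenitors. Pcdh18 was at 16.9 and 18.0 CPM in dividing progenitors and 3.91 and 3.35 CPM in early neurons. Pcdh8 peaked in early neurons at 14.8 and 16.2 CPM and stood at 8.89 and 8.26 CPM in later ones. Cdh2 stayed within 228 to 257 CPM in the control and 255 to 275 CPM in the mutant library over all 4 states.

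**Figure D2:**
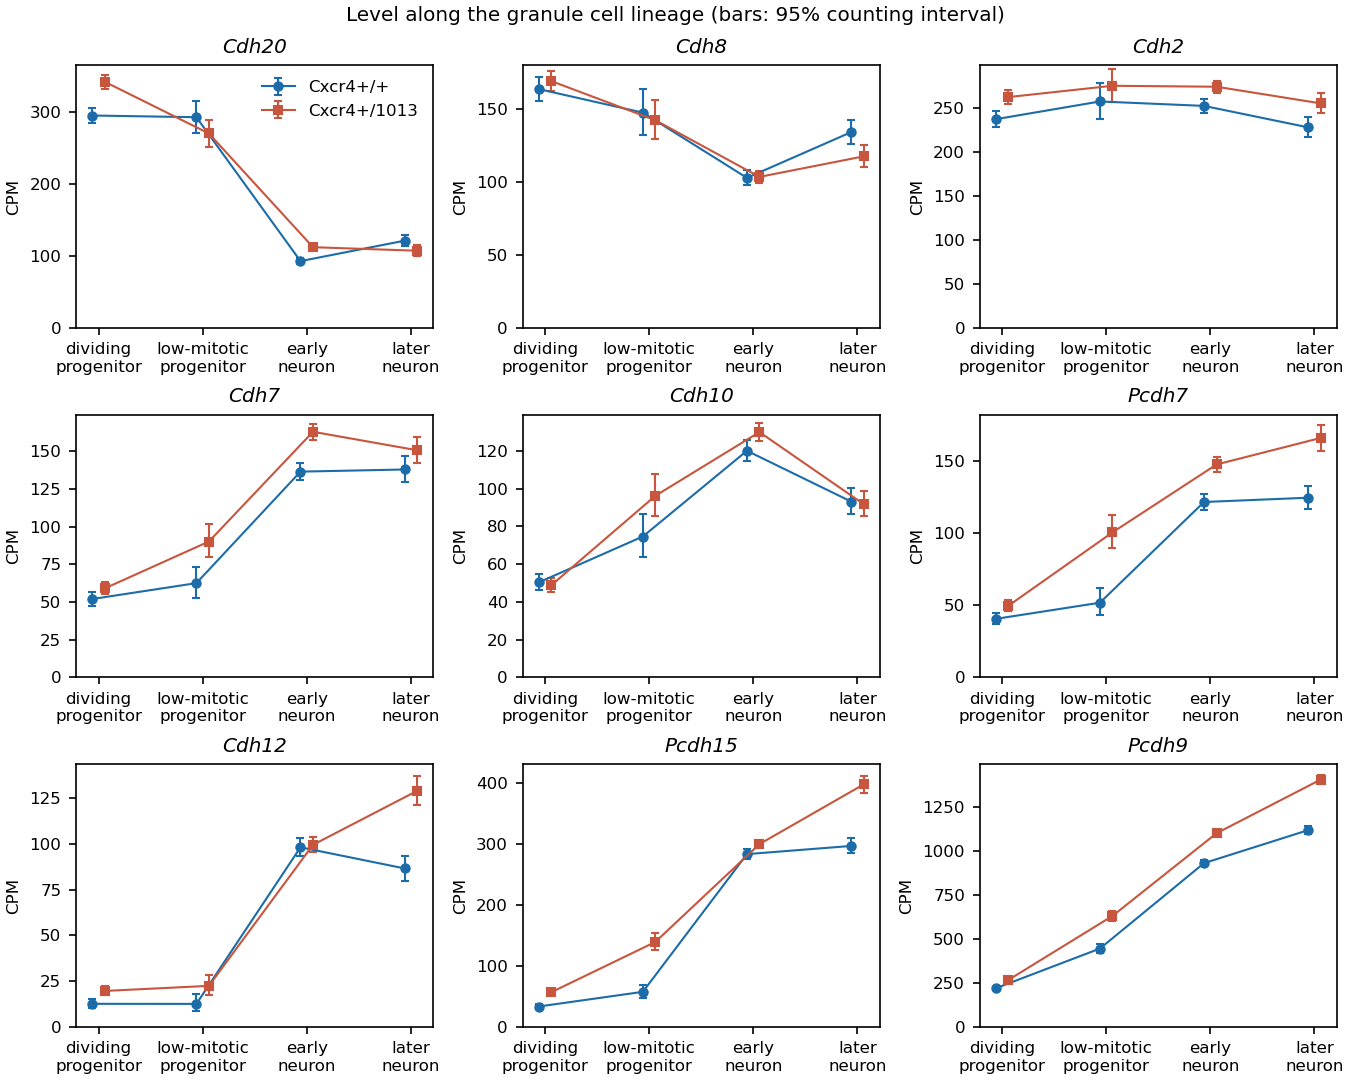
Level of 9 members in CPM (vertical axes, starting at 0, each with its own scale) in dividing progenitors, low-mitotic progenitors, early and later granule neurons, for the Cxcr4+/+ library (circles) and the Cxcr4+/1013 library (squares), with 95% counting intervals. Cdh20 is high in both progenitor states and near 100 CPM in neurons, Cdh2 is level, and Cdh12, Pcdh15 and Pcdh9 are highest in neurons.

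The promoters of Cdh20 and Cdh7 are shown as the pair of chromosome 1 neighbours with opposite courses, in the same RefSeq windows and with the same capitals: chr1:104768270-104768569 for Cdh20 and chr1:109982650-109982949 for Cdh7, the first of its 3 listed starts.
Cdh20: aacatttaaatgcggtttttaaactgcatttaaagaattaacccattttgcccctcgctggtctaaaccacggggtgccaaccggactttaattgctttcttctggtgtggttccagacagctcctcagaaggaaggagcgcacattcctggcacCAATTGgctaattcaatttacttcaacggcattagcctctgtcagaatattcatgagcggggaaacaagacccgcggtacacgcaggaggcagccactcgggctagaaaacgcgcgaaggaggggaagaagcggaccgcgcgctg
Cdh7: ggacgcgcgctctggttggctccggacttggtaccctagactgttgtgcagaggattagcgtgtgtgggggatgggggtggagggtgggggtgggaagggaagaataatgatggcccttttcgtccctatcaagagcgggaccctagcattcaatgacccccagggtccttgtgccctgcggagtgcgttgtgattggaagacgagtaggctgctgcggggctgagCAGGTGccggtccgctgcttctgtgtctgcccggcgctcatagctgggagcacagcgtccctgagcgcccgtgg
Each window held 1 E-box match and 18 CpG. The Cdh20 window had 50.7% GC. The Cdh7 window had 62.7% GC and 1 match to CCCNNGGG, letters bound by EBF factors, which occur in 13.7% of all promoters. The letters CANNTG, bound by basic helix-loop-helix factors such as Atoh1 and Neurod1, were thus present once in each.

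Members also differed within interneurons and astroglia. Interneurons with a UMI of Lhx5, a transcription factor of newly formed GABAergic neurons (770 control and 1026 mutant cells), had higher Pcdh10 (46.5 and 45.6 against 28.6 and 24.1 CPM), Cdh8 (30.6 and 32.3 against 14.3 and 12.2 CPM) and Cdh10 (31.7 and 32.4 against 12.9 and 21.1 CPM) than those without (349 and 481 cells). These were 3 of 24 members, where 4.68% of all genes were higher. Cdh13 was lower in the Lhx5-positive cells, at 145 and 133 against 220 and 235 CPM, the only member of the 24 that was lower, where 0.891% of all genes were. In astroglia with a UMI of Gdf10, a Bergmann glia gene, 4 of 21 members were higher, where 3.31% of all genes were, and 2 were lower, where 4.24% were. Cdh22 was at 89.7 and 81.1 against 30.4 and 32.2 CPM and Cdh4 at 302 and 309 against 182 and 183 CPM. Cdh11 and Pcdh20 were also higher, and Cdh13 (30.1 and 47.1 against 66.9 and 113 CPM) and Pcdh19 were lower. Gdf10-positive cells were deeper, with a median of 13939 against 5902 UMIs in the control and 15239 against 11611 in the mutant library, and the part of depth in this split was not tested.

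From cell to cell members more often than other genes varied widely for their mean level. Cells were thinned to a fixed depth, 10000 UMIs in Purkinje cells and 5000 in the other classes, and the variance over the mean was compared with its median over genes within 1.5-fold of the same mean. It was at least 1.5 times that median in both libraries for 10 of 16 members with a mean of at least 0.1 UMI in Purkinje cells (3.54% of all genes at that mean), 13 of 19 in interneurons (6.23%), 11 of 15 in granule neurons (6.37%), 6 of 16 in astroglia (5.1%) and 4 of 11 in granule cell progenitors (3.24%). No test was made of these shares. Pcdh9 in interneurons had the widest spread, 24.2 and 28.3 against 2.54 and 3.45 in like genes. It was detected in 60.4% and 55.9% of these cells, with up to 74 and 96 UMIs in a cell. Cdh9 in Purkinje cells was at 10.1 and 9.63 against 1.63 and 1.77. By contrast Pcdh8 (1.23 and 1.27) and Pcdh19 (1.34 and 1.27) in Purkinje cells were near the value of 1 that counting alone gives.

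In Purkinje cells some of these members went together and others went against them. Over 436 control and 436 mutant cells, Spearman's rho between Cdh9 and Cdh18 was 0.764 in the control library and 0.724 in the mutant one. Pcdh7 and Cdh12 went with them: rho was 0.604 in both libraries between Pcdh7 and Cdh9, 0.660 and 0.626 between Pcdh7 and Cdh12, 0.621 and 0.567 between Cdh9 and Cdh12, and 0.565 and 0.508 between Pcdh7 and Cdh18. Cdh4 and Pcdh17 went the other way, with rho of -0.524 and -0.475 between Cdh4 and Cdh9, -0.532 and -0.441 between Pcdh17 and Cdh9, and -0.507 and -0.448 between Pcdh17 and Pcdh7. They did not form a second set of like strength, as rho between Cdh4 and Pcdh17 was 0.255 and 0.235. Cdh4 was also less opposed to Pcdh7 (-0.174 and -0.155) and Cdh12 (-0.274 and -0.242). Cells of 1 library share its preparation and its animals, so these are descriptions of 2 libraries. The 11 pairs at or beyond 0.4 kept their sign in cells of either sex in both libraries, but 4 of them were below 0.4 in size in some of these cells. These were Pcdh7 with Pcdh17 (-0.375) and Cdh4 with Cdh18 (-0.388) in male mutant cells, Cdh12 with Cdh18 in female mutant cells (0.341), and Pcdh9 with Cdh18 in female and male control cells (0.388 and 0.391). For Cdh9 and Cdh18 rho was 0.790 in female and 0.737 in male control cells and 0.662 and 0.788 in female and male mutant cells.

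Such pairs were uncommon among genes in general. Of 105 pairs among the 15 members with a mean of at least 0.3 UMI, 7 (6.67%) had rho of at least 0.4 in both libraries and 4 (3.81%) of at most -0.4. Among all 13012651 pairs of the 5102 genes at that level the shares were 0.0024% and 0.000284%. With means of at least 1 UMI in both libraries the shares were 12.7% and 7.27% of 55 member pairs against 0.0172% and 0.0021% of 1617301 gene pairs. The member means, and with them the rho that counting noise allows, are not matched one by one in these shares.

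**Figure D3:**
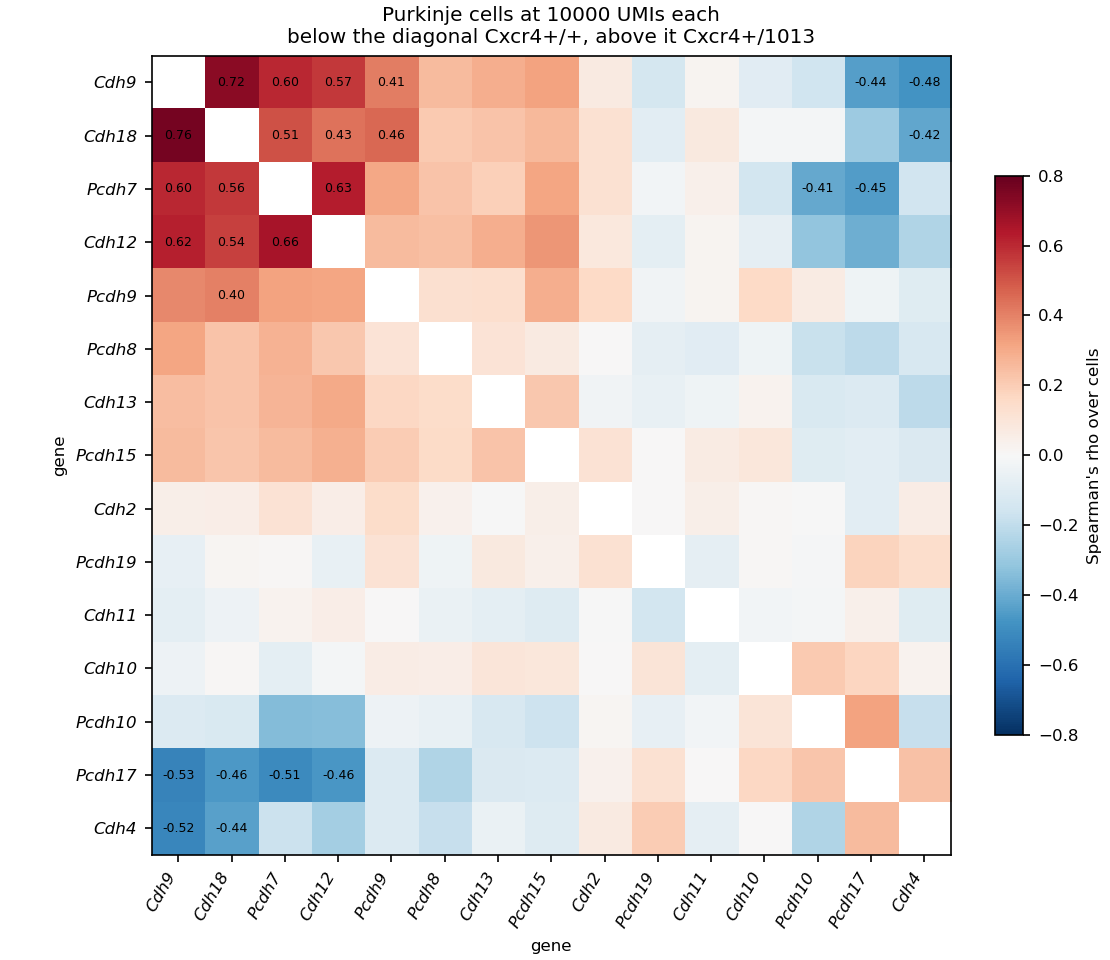
Spearman's rho over Purkinje cells thinned to 10000 UMIs for each pair of 15 members (both axes), below the diagonal in the 436 Cxcr4+/+ cells and above it in the 436 Cxcr4+/1013 cells, with values printed where rho is at least 0.4 or at most -0.4. Cdh9, Cdh18, Pcdh7 and Cdh12 form a red block in the corner of both triangles, Cdh9 and Cdh18 are blue against Cdh4, and Pcdh7 and Cdh9 are blue against Pcdh17.

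The size of the opposition is seen when Purkinje cells are taken by their Cdh9 UMIs at this depth. No Cdh9 UMI was found in 83 control and 51 mutant cells, 1 to 9 in 130 and 133, and 10 or more in 223 and 252. These are ranges of 1 continuous count and not types, and 34 control and 45 mutant cells lay between 8 and 11 UMIs. Mean Cdh18 was 1.99, 5.12 and 11.8 UMIs per cell in these ranges in the control and 2.10, 4.22 and 10.6 in the mutant library. Pcdh7 went from 2.84 to 10.96 and from 2.27 to 11.8, and Cdh12 from 0.301 to 3.13 and from 0.275 to 3.35. Cdh4 went down, from 5.39 to 1.26 in the control and from 5.16 to 1.17 in the mutant library, and Pcdh17 from 7.20 to 2.54 and from 9.35 to 2.67.

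Pcdh10 had another form, with its highest mean in the middle range, 1.80 against 0.651 and 0.614 in the control and 1.76 against 1.24 and 0.484 in the mutant library. Pcdh19 was at 2.23, 2.46 and 2.004 in the control, with overlapping counting intervals at both ends, and at 2.86 (2.42 to 3.37), 2.08 and 1.90 (1.74 to 2.08) in the mutant library, where the ends did not overlap. The cells of all 3 ranges had been gated on the Purkinje marker list, so that carrying it was set in advance. Its 7 genes summed to 159, 175 and 168 UMIs per cell in the control and 162, 181 and 170 in the mutant library. Within that list Foxp2, a transcription factor gene that differs among Purkinje cell groups, went from 10.1 to 16.2 and from 11.6 to 16.3 UMIs per cell, and Rora from 23.3 to 13.6 and from 20.4 to 15.3. The defining gene Skor2 also rose, from 1.01 to 1.48 and from 1.02 to 1.61. So did Car8 (35.4 to 46.8 and 35.2 to 46.7) and Itpr1 (7.02 to 9.30 and 7.78 to 10.5). Calb1 was level (35.5 to 35.3 and 35.8 to 35.1), and Pcp4 was slightly lower (46.9 to 45.4 and 49.7 to 44.9). The summed interneuron list lay between 4.32 and 5.65 UMIs per cell in every range, and the other lists except the oligodendrocyte lineage (1.70 to 2.12) stayed at or below 1.20. Among these, the unipolar brush cell list went from 0.892 to 0.170 in the control and from 0.549 to 0.151 in the mutant library between the lowest and highest Cdh9 range, the control astroglia list from 0.819 to 0.305, and the mutant erythroid list from 0.0392 to 1.13. Their part was not tested.

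**Figure D4:**
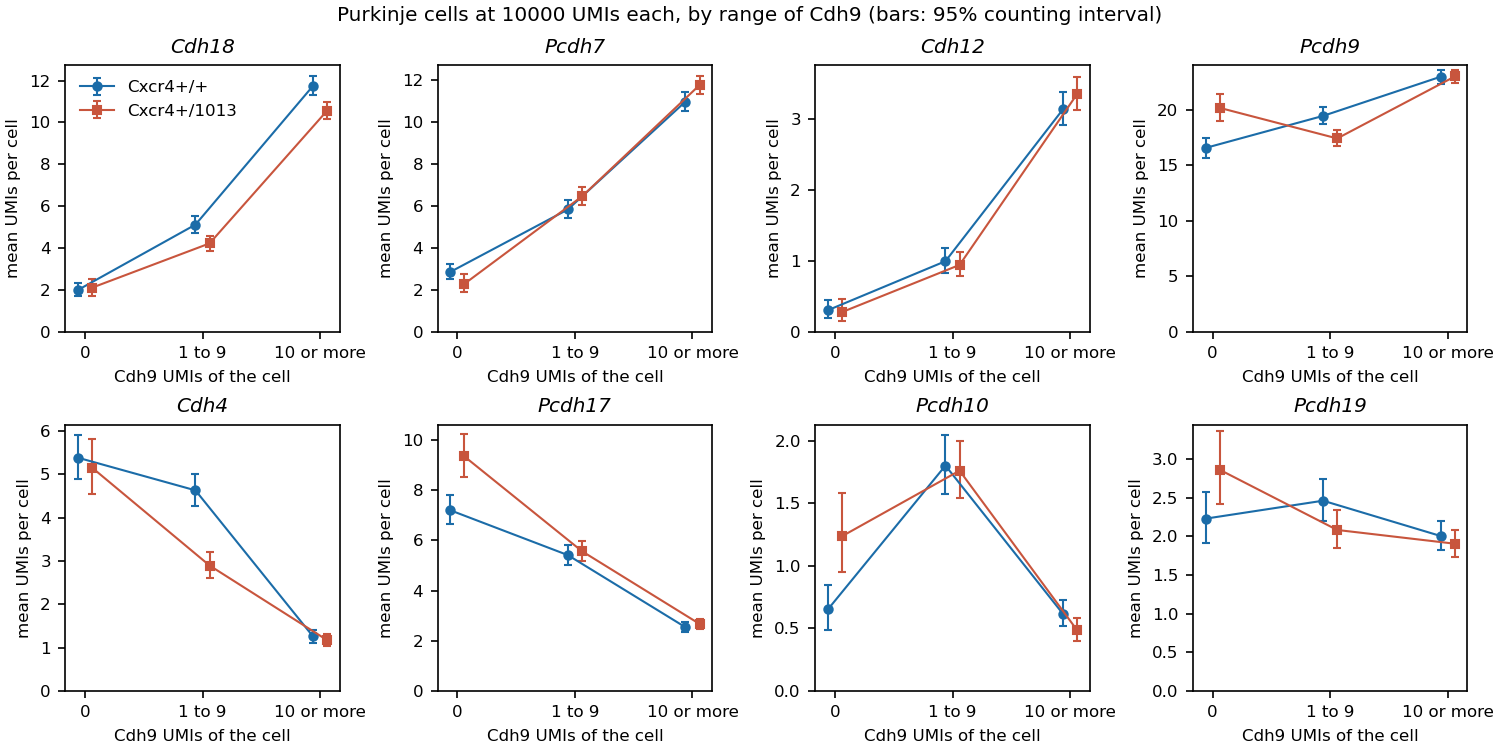
Mean UMIs per cell of 8 members (vertical axes, starting at 0) in Purkinje cells thinned to 10000 UMIs, by the cell's own Cdh9 UMIs (0, 1 to 9, 10 or more), for the Cxcr4+/+ library (circles) and the Cxcr4+/1013 library (squares), with 95% counting intervals. Cdh18, Pcdh7 and Cdh12 are higher in cells with more Cdh9, Cdh4 and Pcdh17 are lower, and Pcdh10 is highest in the middle range. In the Cxcr4+/1013 library the Pcdh10 interval of the middle range overlaps that of the 0 range.

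In interneurons all pairs at 0.4 or more held Pcdh9. Over 1021 control and 1391 mutant cells rho with Pcdh9 was 0.590 and 0.572 for Cdh13, 0.589 and 0.563 for Pcdh17, 0.491 and 0.456 for Pcdh15, and 0.437 and 0.454 for Cdh4. These were the 4 of 21 member pairs (19.0%) at 0.4 or more in both libraries, where 0.0352% of all gene pairs were, and no pair was at -0.4 or less. With means of at least 1 UMI it was 2 of 6 member pairs against 0.272% of gene pairs. Even at a fixed depth the members of the 4 pairs went with the cell's total UMIs before thinning, with rho of 0.600 and 0.491 for Pcdh9, 0.428 and 0.342 for Cdh13, 0.394 and 0.301 for Pcdh17, 0.314 and 0.321 for Cdh4, and 0.293 and 0.241 for Pcdh15. The part of cell depth in the pairs was not tested. In granule neurons, over 1656 and 2095 cells, 2 of 55 pairs (3.64%) reached 0.4 in both libraries, where 0.136% of all gene pairs did. They were Pcdh15 with Pcdh9 (0.449 and 0.440) and Pcdh7 with Pcdh9 (0.405 and 0.420). With means of at least 1 UMI in granule neurons it was 1 of 3 member pairs against 1.53% of gene pairs.

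Between the libraries most members differed little within a class. A member was counted as apart when its CPM differed at least 1.5-fold, with at least 50 UMIs over both libraries in the class, and the ratio of mutant to control carries an exact binomial interval for counting error. None of 23 members was apart in granule neurons, where 5.07% of all genes were, and none of 25 in interneurons, where 4.35% were. The median log2 ratio of the members was 0.11 in granule neurons, against 0.04 over all genes, and -0.02 in interneurons, against 0.02.

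Over whole libraries the 3 members apart, of 30 that entered, were all highest in endothelial cells or fibroblasts and lower in the mutant library, where 6.92% of all genes were lower and 9.11% apart in either direction. Cdh5 was at 17.6 CPM in the control and 6.83 CPM in the mutant library, with a ratio of 0.387 (0.357 to 0.420). Pcdh12 had a ratio of 0.531 (0.386 to 0.726) and Cdh19 of 0.325 (0.185 to 0.550), from 56 and 20 UMIs, 25 of the 56 in 1 control cell. In whole-library sums fewer cells of a type and less RNA per cell cannot be told apart. The gated cells numbered 61 and 27 endothelial, 47 and 25 mural and 185 and 29 fibroblasts. Those classes held 69.5% and 59.5% of all Cdh5 UMIs, 71.7% and 56.1% of Pcdh12 UMIs, and 58.9% and 30.0% of Cdh19 UMIs, so that most mutant Cdh19 UMIs lay outside them. Within endothelial cells Cdh5 was at 622 and 682 CPM.

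In granule cell progenitors 2 of 22 members were apart, where 5.1% of all genes were. Pcdh15 was at 37.8 CPM (34.4 to 41.4) in the control and 71.1 CPM (67.2 to 75.2) in the mutant library, with a ratio of 1.88 (1.69 to 2.10), and its ratio was 2.42 in female and 1.34 in male cells. Dividing and low-mitotic progenitors both had the higher level in the mutant library. The granule neuron marker list moved with it to a lesser extent, from 1098 to 1263 CPM with all 7 genes detected in both libraries, and the erythroid list went from 7.44 to 62.1 CPM. Their part in the result was not tested. Cdh12 had a ratio of 1.60 (1.32 to 1.95), but 71 of its 343 mutant UMIs lay in 1 cell, and the ratio was 0.896 in female cells and 0.972 after the removal of likely doublets.

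In Purkinje cells 2 of 22 members were apart, where 4.76% of all genes were. Cdh8 was at 26.5 CPM (24.1 to 29.1) in the control and 12.7 CPM (11.04 to 14.5) in the mutant library, with a ratio of 0.479 (0.404 to 0.565). The mutant level was the lower one in female cells (33.9 and 9.99 CPM) and in male cells (16.6 and 11.2 CPM). At 2000 UMIs per cell it was detected in 31 of 486 control and 5 of 465 mutant cells. The astroglia marker list was also lower in mutant Purkinje cells, at 67.5 and 27.8 CPM with all 7 genes and the defining Slc1a3 detected in both libraries, and the fibroblast list stood at 21.9 and 2.83 CPM. Their part was not tested. Cdh22 had a ratio of 0.610 (0.326 to 1.12) from 31 and 19 UMIs, within counting error. The Purkinje genes of the pairs described above were under 1.5-fold apart: Cdh9 had a ratio of 1.11, Pcdh7 of 1.11, Cdh18 of 0.933 and Pcdh17 of 0.999, while Cdh4 stood at 0.752.

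In astroglia or Bergmann glia 3 of 23 members were apart, all higher in the mutant library, where 4.07% of all genes were higher and 5.87% apart in either direction. Cdh13 was at 34.0 CPM (30.9 to 37.4) and 55.1 CPM (50.1 to 60.5), a ratio of 1.62, with 1.40 in female and 1.49 in male cells. Cdh18 was at 5.17 and 12.9 CPM, from 64 and 105 UMIs, and its ratio was 2.28 in female and 1.03 in male cells. Cdh12 was at 10.5 and 15.9 CPM, with 43 of its 129 mutant UMIs in 1 cell. The unipolar brush cell list was at 44.0 and 64.0 CPM in these cells, with 4 of 5 genes detected in both libraries, and its part was not tested.

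The glutamatergic neurons had the most members apart, 5 of 22, where 8.56% of all genes were. Pcdh7 was at 202 CPM (188 to 218) and 542 CPM (519 to 567), a ratio of 2.68. Pcdh15 (1.79), Cdh6 (1.65) and Cdh7 (1.65) were also higher and Cdh11 (0.644) lower. These differences held in female cells, 188 control and 268 mutant, where Pcdh7 was at 221 and 579 CPM. Among the 80 control and 15 mutant male cells the direction was opposite for Pcdh7 (148 and 130 CPM), Cdh6, Cdh7 and Cdh11, and the same for Pcdh15. The marker list of this class was at 3168 and 3643 CPM, and the interneuron list at 398 and 203 CPM with 7 and 6 of its 7 genes detected. The astroglia list was at 82.4 and 30.5 CPM (Slc1a3 at 158 and 59 UMIs) and the Purkinje list at 1242 and 1573 CPM (Skor2 at 1 UMI in both), each with 7 of 7 genes. Their part in the result was not tested.

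**Figure D5:**
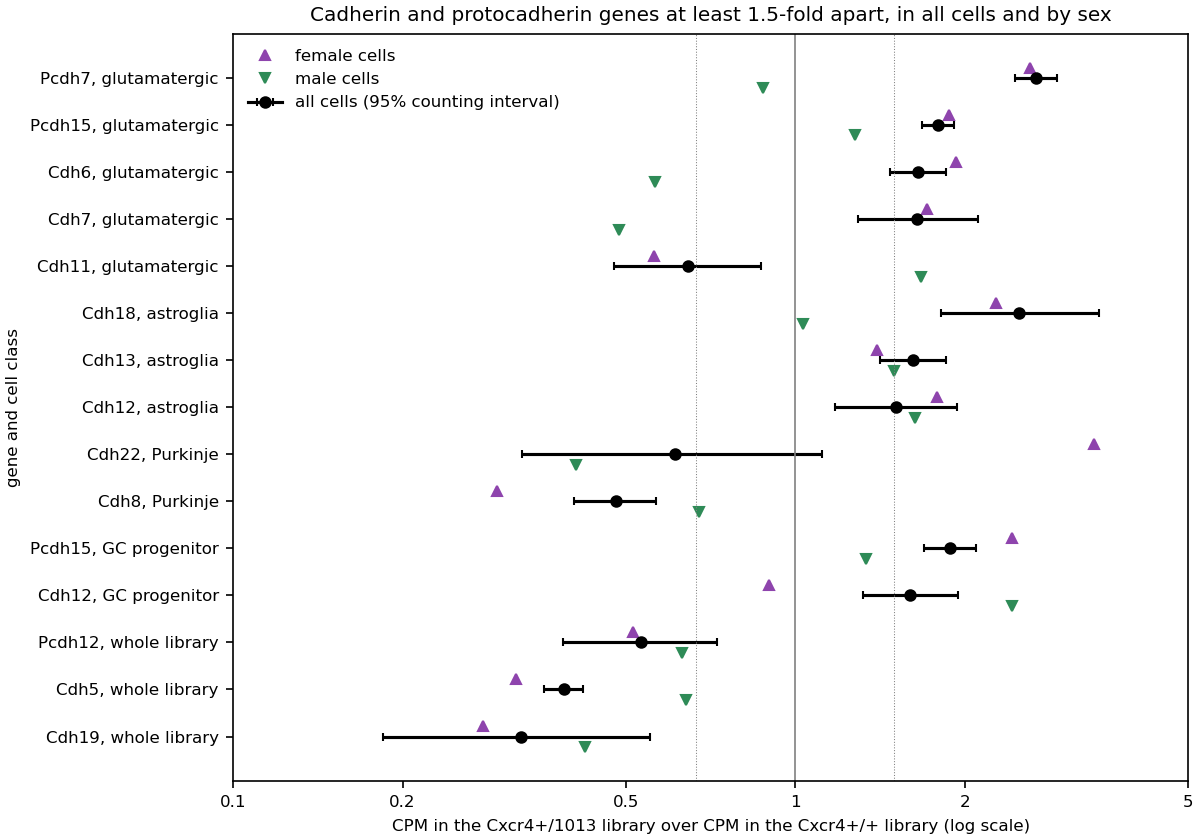
Ratio of CPM in the Cxcr4+/1013 library to CPM in the Cxcr4+/+ library (horizontal log axis) for each member at least 1.5-fold apart in the whole library, granule cell progenitors, Purkinje cells, astroglia and glutamatergic neurons. Black points are all cells with 95% counting intervals, triangles are female (up) and male (down) cells, and dotted lines mark 1.5-fold: Pcdh15 in progenitors and Cdh8 in Purkinje cells keep 1 direction in both sexes, whereas 4 of the 5 glutamatergic members do not.

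In the smaller classes single cells weighed more. In endothelial cells 4 of 11 members were apart, where 16.2% of all genes were. Pcdh9 was at 249 and 10.6 CPM, Pcdh15 at 69.2 and 7.54 CPM and Cdh4 at 32.4 and 3.02 CPM, and Pcdh17 had a ratio of 1.55. In the control endothelial cells 99 of 399 Pcdh9 UMIs and 37 of 111 Pcdh15 UMIs lay in 1 cell. The interneuron list was at 99.8 and 9.05 CPM there, with 7 and 4 of 7 genes detected and its defining gene Pax2 at 19 and 0 UMIs, and the oligodendrocyte list at 50.5 and 7.54 CPM, with 7 and 3 of 7 genes and Olig1 at 15 and 0 UMIs. Their part was not tested. In mural cells 1 of 5 members was apart, where 20.3% of all genes were: Cdh12 had 2 control and 48 mutant UMIs, 39 of them in 1 cell, and the granule neuron list stood at 62.2 and 294 CPM, with all 7 genes detected in both libraries.

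Elsewhere the members apart were few. They were 1 of 7 in unipolar brush cells, where 10.3% of all genes were apart: Cdh4 was at 159 CPM (127 to 198) and 67.9 CPM (47.6 to 94.0), lower in the mutant library in cells of either sex. In these cells the interneuron list was at 45.3 and 20.7 CPM, with 5 and 6 of 7 genes detected and Pax2 at 1 UMI in both, and the astroglia list at 65.0 and 32.1 CPM, with 7 and 4 of 7 genes and Slc1a3 at 15 and 6 UMIs, and their part was not tested. In the oligodendrocyte lineage they were 2 of 20 (background 8.03%), Pcdh8 with a ratio of 2.23 and Cdh7 with 1.79 (0.978 to 3.39, which includes 1). In ependymal cells they were 2 of 14 (background 6.82%), Cdh13 with 0.559 and Pcdh15 with 2.12, where 138 of 169 mutant Pcdh15 UMIs lay in 1 cell and the ratio without the top cells was 0.647. In microglia or macrophages they were 2 of 3 (background 18.0%), Pcdh9 with 0.431 (1.01 under a stricter gate) and Cdh2 with 1.88. Single members were apart in fibroblasts (Cdh4, 0.601, 1 of 8, background 19.6%) and in GABAergic or glial progenitors (Pcdh7, 0.424, 1 of 14, background 11.1%), where 28 of the 36 control Pcdh7 UMIs lay in 1 cell and the ratio without the top cells was 1.53.

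The partners of the family were counted by the same 1.5-fold rule in the main classes, where 4.35% to 5.87% of all genes were apart. None of 12 catenins and anchors, which tie cadherins to actin, was apart in granule cell progenitors, granule neurons, Purkinje cells, interneurons or astroglia, and Ctnnb1, beta-catenin, was at 281 and 278 CPM in progenitors. Ctnna2, the neuronal alpha-catenin, was at 592 and 695 CPM in progenitors and 1186 and 1375 CPM in granule neurons. The median log2 ratio of the 12 genes was 0.234 in progenitors and 0.182 in granule neurons, against 0.067 and 0.038 over all genes. So the catenins stood somewhat higher in the mutant library in these classes, below the fold used. None of 11 protocadherin partners and WAVE complex genes was apart in those classes. Their median log2 ratio was 0.141 both in progenitors and in granule neurons, also above that of all genes. Of 18 other cadherin superfamily genes, 2 of the 15 with enough UMIs were apart in Purkinje cells, Fat1 (0.528) and Fat3 (26.0 and 13.7 CPM, 0.528), both lower in the mutant library. In interneurons 2 of 15 were apart and lower, Fat2 (0.477) and Celsr1 (0.607), and in astroglia 1 of 13 was higher, Dchs2 (1.66). Of 7 cleavage and trafficking genes, Psen2, a presenilin of the gamma-secretase that cuts cadherin tails, was higher in astroglia (12.0 and 18.2 CPM, 1.51). Mmp9 was lower over whole libraries (3.37 and 1.30 CPM, 0.386), where 6.92% of all genes were. In progenitors and granule neurons the median log2 ratio was 0.126 and 0.108 for the members and 0.101 and 0.074 for the other superfamily genes. For the cleavage and trafficking genes it was 0.014 and 0.078, so the higher median was not particular to the catenins.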

How the data were processed

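The values were unique molecular identifier (UMI) counts per gene and barcode, which the authors deposited as 1 filtered matrix per library. They were made from 10x 3' v3.1 libraries with bcl2fastq 2.20.0.4222, Cell Ranger 7.2 and the mm10 build, per the submitters' processing notes and the labels' protocols. The annotation release, the setting for intronic reads and the animal numbers are not given in the sources used here. Counts from introns would raise long genes, and several members span over a megabase. The extraction protocol writes Cxcr4+/-, and the genotype label Cxcr4+/1013 was followed.

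Kept barcodes had 500 genes or more and no more than 10% mitochondrial UMIs. A cell entered a class with at least 3 detected markers of its list, the defining one among them, and at least 1 more than of any other list. No doublets were removed beyond that gate, and an alternative removed the 641 control and 626 mutant barcodes with the highest Scrublet scores. Female cells had an Xist UMI and no Y-linked UMI, male cells the reverse. UMIs were summed per library and class in Python 3.11.15 (numpy 2.4.6, scipy 1.17.1, pandas 2.3.3, scanpy 1.11.5). Ratios carry exact conditional binomial 95% intervals, which cover counting error only. With 1 library per genotype no test was made. The ratio calls were tested on simulated data, and TMM (edgeR 4.0.16) and DESeq2 1.42.0 size factors served as alternative scalings. Median depth of kept barcodes was 12101 control and 13557.5 mutant UMIs. Gene coordinates are those of GRCm38.

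Members with at least 10 CPM in a class in both libraries were described with full values, and members at least 1.5-fold apart with at least 50 UMIs were named. Cell pairs were taken where rho was at least 0.4 in size in both libraries. The members, the marker and partner lists and these rules were chosen with earlier results of these data known. Pair correlations, the granule cell states and results outside the main classes were run under alternatives chosen after seeing the data.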

Additional observations from a re-analysis of the deposited data

Results flagged for a closer look

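Some members differed between the libraries in opposite directions in female and male cells, each beyond its counting interval. The cases below were picked from the members and classes because they also passed a set fold in each sex. The share of all genes passing the same rule was not counted. These cases therefore do not set the members apart from other genes. The difference between the sexes was not tested, and the female and male cells of a library may come from different animals. In Purkinje cells Pcdh10 had a mutant-to-control ratio of 1.53 in female cells (78.3 and 120 CPM) and 0.579 in male cells (93.0 and 53.9 CPM). In glutamatergic neurons Cdh6 had a ratio of 1.93 in female and 0.563 in male cells and Cdh4 of 0.601 and 2.18, with 15 male mutant cells. In granule cell progenitors Pcdh17 had 1.28 in female and 0.641 in male cells. In interneurons Cdh10 had 1.32 and 0.761. In GABAergic or glial progenitors Cdh20 had 1.42 and 0.577, in unipolar brush cells Pcdh15 had 2.73 and 0.664, and in ependymal cells Pcdh17 had 0.582 and 2.11. Over whole libraries Cdh6 had 1.26 in female and 0.755 in male cells.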

How the results depend on the processing

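No paired analysis was possible because the groups share only replicate number 1. Of 29 single-member ratios, 17 kept their direction under every alternative run. The number of members apart was 2 in granule cell progenitors and became 1 without likely doublets, under a stricter gate or without the top cells, and 4 in male cells. In Purkinje cells 2 became 6 with at least 1000 genes and at most 5% mitochondrial UMIs, 5 in female cells, and 1 in male cells, under the stricter gate, without the top cells or at 100 UMIs. In granule neurons 0 became 1 in female cells or at 20 UMIs. In interneurons 0 became 4 in male cells and 1 in female cells, under the stricter filter or gate, TMM or DESeq2 factors, or without the top cells. In astroglia 3 became 1 without likely doublets. Over the main classes 7 became 3 at 2000 UMIs per cell, 18 at the lower fold threshold tried and 2 at 2-fold. The neuronal ratio of 1.68 in the control library and 1.33 in the mutant one was 1.33 and 1.12 under the stricter filter, 1.73 and 1.40 without likely doublets, 1.75 and 1.41 under the stricter gate, 1.72 and 1.44 in female cells, and 1.27 for mutant male cells. Directions turned as follows. Without likely doublets the ratio was 0.972 for Cdh12 in progenitors, 1.87 for Pcdh7 in GABAergic or glial progenitors and 0.912 for Pcdh15 in ependymal cells. Under the stricter gate it was 0.784 for Cdh7 in the oligodendrocyte lineage, 0.846 for ependymal Pcdh15 and 1.01 for microglial Pcdh9. In female cells it was 0.896 for progenitor Cdh12, 3.40 for Purkinje Cdh22 and 15.8 for microglial Pcdh9. In male cells it was 0.486, 0.874, 1.67 and 0.563 for glutamatergic Cdh7, Pcdh7, Cdh11 and Cdh6, 4.08 for Pcdh7 in GABAergic or glial progenitors, 1.01 and 0.295 for ependymal Cdh13 and Pcdh15, and 1.45 for fibroblast Cdh4. Without the top cells it was 1.53 for Pcdh7 in GABAergic or glial progenitors and 0.647 for ependymal Pcdh15. The cause was not tested. Of 132 alternative rho values none changed sign and 23 moved by over 0.1, among them Pcdh9 with Cdh18 at 0.102 and 0.0697 under the stricter filter, which left few Purkinje cells.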
